A study of Mus musculus with 10 samples.

Results

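The genes described here build cholesterol and fatty acids or control and remove them: 35 genes out of 54446 gene identifiers counted in mouse neuroblastoma tumours. They were taken by symbol, in 5 groups by role: 7 genes of the mevalonate arm, 11 of the sterol arm, 6 that control the sterol regulatory element binding proteins (SREBPs), 6 of fatty acid synthesis, and 5 of the liver X receptors (LXRs) and sterol efflux. RNA was sequenced from tumours of TH-MYCN mice, a transgenic strain in which the tyrosine hydroxylase promoter drives human MYCN in sympathetic precursor cells. Per the sample titles, tumours were untreated (libraries 1, 2 and 3), taken after 24 h of the drug combination (libraries 2, 3 and 4) or after 5 days of it (libraries 1 to 4). That both drugs were given together rests on the titles, since the series' description has "or" between their names. MLN8237 blocks Aurora A, a kinase that drives mitosis, and AZD6738 blocks ATR, a kinase of the replication checkpoint. No age, sex, dose or vehicle was given in the labels. Nothing in the labels ties each library to a mouse of its own, so p-values reflect only how far these libraries spread, which may be technical.

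Cells make cholesterol from acetyl-CoA by way of mevalonate, squalene and a series of sterols. SCAP carries SREBP precursors out of the endoplasmic reticulum when sterols are low, and INSIG proteins hold them back when sterols are high; the released SREBPs switch on the synthesis genes. LXRs are nuclear receptors for oxidised sterols that switch on the efflux pumps ABCA1 and ABCG1. SREBP2 is known mainly for the cholesterol genes and SREBP1 for the fatty acid genes, and LXR also acts on Srebf1.

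After 24 h, 15 of the 16 tested cholesterol synthesis genes (mevalonate and sterol arms) and 6 of 6 fatty acid synthesis genes had lower mean levels than untreated tumours, while 5 of 5 LXR and efflux genes were higher. The median log2 difference from untreated was -0.44 over the cholesterol synthesis genes, -0.26 over the fatty acid genes and 0.51 over the LXR and efflux genes, beside -0.01 over all 14956 tested genes. After 5 days the cholesterol synthesis genes were again mostly lower (14 of 16, median -0.42), but the fatty acid genes were mostly higher (5 of 6, median 0.93) and the LXR and efflux genes stood 2.29 above untreated. Most of the 5-day excess lay in 1 library: without 5-day library 1 the 5-day medians were -0.28, 0.23 and 0.48. None of the 33 tested genes of the 35 passed an adjusted p of 0.05 in edgeR's quasi-likelihood test in any of the 3 comparisons, with or without that library. Over all 14956 tested genes the count was 0 in each comparison too. Without that library it was 2 of 14699 at 24 h and 0 in the other comparisons.

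Depth was even, at 5576926 to 5696436 counts per library. Levels are given as CPM, counts scaled to library size after TMM normalisation, and 3 counts corresponded to 0.516 to 0.655 CPM. Markers of sympathetic tumour cells, among them Th and Dbh, summed to 2420 to 3039 CPM in untreated tumours, 2214 to 2603 after 24 h and 682 to 2701 after 5 days, the lowest being 5-day library 1. This library stood apart, with a mean Spearman correlation of 0.74 with the others against 0.944 to 0.954 for the other 9 libraries. Its macrophage markers (15 genes) summed to 13660 CPM, against 568 to 962 in untreated tumours, and its fat cell markers (10 genes) to 12430 CPM, against 51.6 to 1178. Its fibroblast markers (8 genes) summed to 17910 CPM, against 801 to 2585, and its endothelial markers to 440 CPM, against 65.3 to 144. In 5-day library 2, fat cell markers summed to 1865 CPM, adrenal cortex markers to 1625 CPM (11.9 to 14.8 in untreated) and hepatocyte markers to 366 CPM (up to 3.14 in untreated). The skeletal muscle sum was 363 CPM there and 130 CPM in 5-day library 4, against 2.80 to 4.18 in untreated tumours. Adrenal cortex markers were above the untreated range in 5-day library 3 as well, at 98.8 CPM. In such bulk samples, fewer cells of a type and less RNA per cell cannot be told apart. Results that include the 5-day group are therefore given with and without library 1.

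Of the 35 genes, 33 passed the filter on low counts. The other 2 belong to the mevalonate arm. Mvd, which encodes mevalonate pyrophosphate decarboxylase, read 0 in all 10 libraries. It lies wholly inside the annotated span of Gm20388, and so do 70 other protein-coding genes, of which 70 read 0 as well. Across the genome, 673 of 678 protein-coding genes lying inside another gene's span without sharing its exons read 0 (99.3%), against 20.1% of those free of such overlap, so Mvd was not measurable in these counts. Fdps, encoding farnesyl diphosphate synthase, has 79.6% of its exon bases inside other spans and read 0 to 1.95 CPM. Lss (68.5%) and Hmgcs1 (46.6%) are also partly covered, so their levels are uncertain, while 22 genes have no covered exon base.

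In untreated tumours, the levels per kilobase of uncovered exon spanned from 177 ± 29.6 CPM per kb (SD, n = 3) for Scd2, a stearoyl-CoA desaturase of the brain type, to 2.20 ± 0.78 for Mylip among the tested genes. Acly (83.8 ± 8.22), Fasn (74.3 ± 15.1), Acat2 (68.4 ± 1.72), Hmgcs1 (54.2 ± 8.78) and Srebf2 (35.4 ± 1.57) followed Scd2. The efflux genes Abca1 (4.81 ± 0.30) and Abcg1 (4.25 ± 1.10) ranked 30 and 31 of 34 genes. Of the 33 neighbouring pairs in this order, 26 had overlapping untreated ranges, so most neighbours did not differ beyond their spread. The gaps without overlap lay between Scd2 and Acly, Acat2 and Hmgcs1, Hmgcs1 and Srebf2, Acaca and Insig2, Insig2 and Lss, Abcg1 and Tm7sf2, and Tm7sf2 and Mylip.

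**Figure D1:**
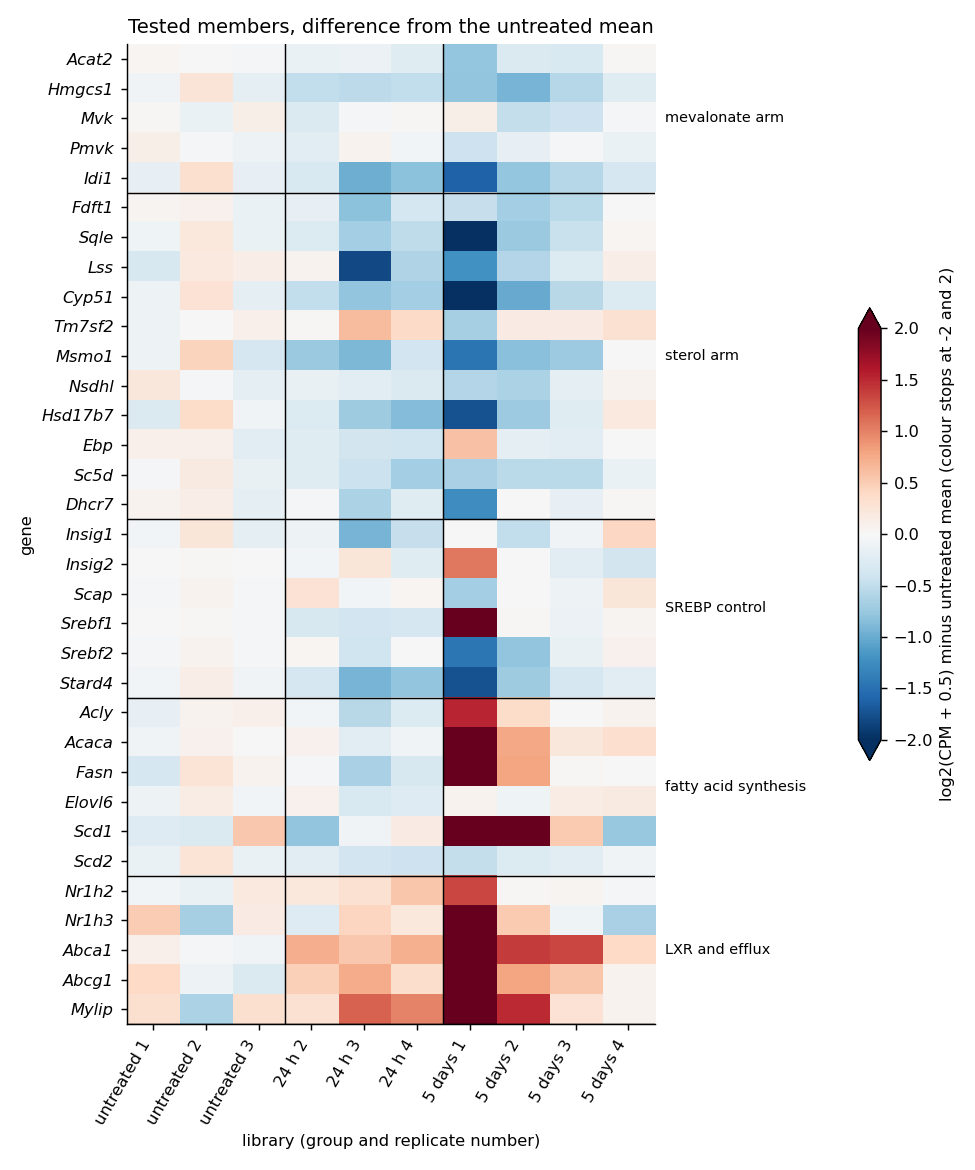
Heat map of the 33 tested genes (rows, grouped by role) in the 10 libraries (columns); colour gives log2(CPM + 0.5) minus the untreated mean, and stops at -2 and 2. The 24 h columns are mostly blue above the fatty acid block and red in the efflux block, and 5-day library 1 holds the deepest colours in both directions.

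Counted gene by gene, 12 of the 33 tested genes lay lower in every 24 h library than in every untreated library, where 6.69% of all tested genes did so. The 12 were Acat2, Hmgcs1, Idi1, Fdft1, Sqle, Cyp51, Msmo1, Ebp, Sc5d, Srebf1, Stard4 and Scd2. In the higher direction 2 genes, Nr1h2 and Abca1, were free of overlap, against 7.11% of all genes. An unadjusted p under 0.05 was reached by 2 of the 33 (background 1.76%), Hmgcs1 and Sc5d, and without 5-day library 1, which enters through the shared spread, by 14 of 33, 11 lower and 3 higher (background 8.1%). After adjustment no gene of the 33 was called, where the background was 0.0% with all libraries and 0.0136% (2 of 14699 genes) without 5-day library 1.

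At 5 days, 4 of the 33 (Hmgcs1, Idi1, Cyp51 and Stard4) lay lower in all 4 libraries than in every untreated library (background 4.89%) and 2 (Acaca and Abca1) higher (background 4.01%). Without 5-day library 1, Insig2 joined the lower genes, making 5 (background 7.49%), and Tm7sf2 the higher ones, making 3 (background 6.64%). Unadjusted p fell under 0.05 for 9 of 33 genes with all libraries, 5 higher and 4 lower (background 8.4%), and for 7 without library 1, 2 higher and 5 lower (background 8.52%). Adjusted p passed 0.05 for 0 of 33 in both fits, against a background of 0.0% in one and 0.0% in the other. Under DESeq2, an alternative test, 21 genes of the whole table were called at 5 days and none of them was among the 33; it called 0 of the 33 in the other comparisons too.

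Between 24 h and 5 days, 5 of the 33 (Ebp, Srebf1, Acly, Acaca and Fasn) lay higher in every 5-day library than in every 24 h library (background 3.32%) and 0 lower (background 4.35%). Leaving out 5-day library 1 gave the same 5 higher genes (background 5.24%), and Nr1h2 lay lower (background 6.6%). An unadjusted p under 0.05 went to 6 of 33, all higher (background 6.3%), and 5 without library 1, 4 higher and 1 lower (background 7.76%). No gene was called after adjustment, with backgrounds of 0.0% and 0.0%. These comparisons share libraries: both treated groups are set against the same untreated tumours, and the 24 h group enters 2 of the 3.

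Among the mevalonate genes, Hmgcs1, which encodes the cytosolic HMG-CoA synthase at the entry to the pathway, had the smallest p of the arm at both times in the fit of all 10 libraries. It read 126, 157 and 116 CPM in untreated libraries 1, 2 and 3, then 94.1, 92.2 and 94.1 in the 24 h libraries 2, 3 and 4. In 5-day libraries 1 to 4 it read 76.4, 69.1, 89.0 and 111. Every treated library thus lay below every untreated one, and 5-day library 4 came nearest. The log2 difference from untreated was -0.51 ± 0.19 (SE) after 24 h (edgeR, adjusted p = 0.9997) and -0.62 ± 0.17 after 5 days (adjusted p = 0.538). Without 5-day library 1 these were -0.51 ± 0.16 (adjusted p = 0.444) and -0.57 ± 0.16 (adjusted p = 0.339).

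Hmgcs1 was also the gene whose promoter window held an exact sterol regulatory element, the SREBP binding motif, and its window is printed for that reason. RefSeq windows of 300 bases (250 before to 50 after the start, GRCm38.p6) were at hand for 28 of the 35 genes, 37 windows in all since some genes have several starts. The 7 without an entry were Fdft1, Sqle, Stard4, Scd1, Scd2, Abcg1 and Fdps. The element was searched as TCACNCCAC on both strands. The 250 bases before the Hmgcs1 start (chr13:119690101-119690350, plus strand) follow, with the element in capitals 137 bases before the start. Beside them stand 49 bases around near matches, with 1 letter different, at Cyp51 (chr5:4104777-4104825, minus strand, 108 bases before the start) and Srebf2 (chr15:82147087-82147135, plus strand, 162 bases before the start).
Hmgcs1: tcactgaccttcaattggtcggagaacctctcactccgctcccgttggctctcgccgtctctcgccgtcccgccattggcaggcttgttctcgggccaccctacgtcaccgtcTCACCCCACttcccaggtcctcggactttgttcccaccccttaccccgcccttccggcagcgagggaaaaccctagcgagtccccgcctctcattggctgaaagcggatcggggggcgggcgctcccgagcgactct
Cyp51: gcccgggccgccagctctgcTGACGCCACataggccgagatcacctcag
Srebf2: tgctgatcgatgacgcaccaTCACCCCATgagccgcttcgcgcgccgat

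Counted by gene, with any of its windows holding the motif, an exact element stood at 1 of the 28 genes, against 1.44% of 27025 genes with windows of the same length. With at most 1 of the 8 fixed letters different, a search added after the exact matches were seen, 13 of 28 genes held one (46.4%), against 26.7% of all genes. The CCAAT box (CCAAT, bound by NF-Y, a partner of SREBPs) was present at 21 of 28 genes, against 41.1%, and the GC box (GGGCGG, bound by Sp1) at 22 of 28, against 38.2%. The LXR element, searched as a pair of AGGTCA copies 4 bases apart, was found at 0 of 28 genes and at 0.0148% of all genes. Exact pairs were so rare that 28 genes could hardly show any, and near matches of this element were not searched. These searches count letters on both strands and show no binding. Their background took in every gene with a window, expressed in the tumours or not, and shares among expressed genes alone were not computed.

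Idi1, the isomerase that makes dimethylallyl diphosphate, had 43.9, 61.5 and 43.7 CPM untreated, 39.7, 24.8 and 27.7 after 24 h, and 15.7, 28.4, 32.9 and 38.9 after 5 days. Its treated and untreated values did not overlap. The log2 differences were -0.69 ± 0.32 (SE) after 24 h and -0.78 ± 0.30 after 5 days (edgeR, adjusted p = 0.9997 and 0.538), and -0.69 ± 0.20 and -0.57 ± 0.20 without 5-day library 1 (adjusted p = 0.402 and 0.468). Acat2, which joins acetyl-CoA units in the cytosol, read 179, 172 and 171 CPM untreated, 158, 161 and 148 after 24 h, and 101, 142, 141 and 178 after 5 days. The 24 h values lay just under the untreated ones, by -0.16 ± 0.18 on the log2 scale, and 5-day library 4 was back inside the untreated range. The kinases of the arm did not separate the groups: Mvk ranged from 14.3 to 21.8 CPM and Pmvk from 31.0 to 45.2 CPM over the 10 libraries, with overlapping groups. Between 24 h and 5 days, Pmvk (-0.13 ± 0.13), Acat2 (-0.15 ± 0.17) and Hmgcs1 (-0.11 ± 0.17) differed by about 1 SE or less, and without library 1 by -0.06 ± 0.11, -0.03 ± 0.10 and -0.07 ± 0.16.

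The sterol arm turns farnesyl units into squalene and then into cholesterol. Its 11 genes had a median log2 difference of -0.45 after 24 h (10 lower, 1 higher) and of -0.43 after 5 days (9 lower, 2 higher), or -0.24 without 5-day library 1 (10 lower, 1 higher). Sqle, the squalene epoxidase and a known control point, read 173, 212 and 167 CPM untreated, 151, 114 and 128 after 24 h, and 39.9, 109, 134 and 187 after 5 days. All 24 h values were below the untreated range, whereas 5-day library 4 was inside it. Cyp51, the lanosterol demethylase, read 107, 139 and 100 CPM untreated, 81.1, 65.5 and 70.9 after 24 h, and 27.7, 56.7, 77.1 and 94.6 after 5 days. No treated value of Cyp51 reached the lowest untreated one. Its 5-day log2 difference was -0.85 ± 0.34 (SE; edgeR, adjusted p = 0.538), or -0.60 ± 0.18 (adjusted p = 0.389) without library 1. Between 24 h and 5 days Cyp51 differed by -0.18 ± 0.34 with all libraries and by 0.06 ± 0.18 without library 1, so the sign of that difference rests on library 1.

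Sc5d, a sterol desaturase, read 40.6, 46.4 and 36.9 CPM untreated, 34.9, 30.4 and 25.4 after 24 h, and 26.2, 28.1, 28.2 and 37.3 after 5 days. Its 24 h values lay below the untreated ones and 5-day library 4 just inside them. The log2 differences were -0.45 ± 0.18 (SE) after 24 h (edgeR, adjusted p = 0.9997) and -0.46 ± 0.17 after 5 days (adjusted p = 0.538), or -0.41 ± 0.15 without 5-day library 1. Msmo1, the methylsterol monooxygenase, read 49.5, 72.8 and 42.3 CPM untreated, 31.8, 28.5 and 40.9 after 24 h, and 19.2, 29.8, 32.0 and 53.1 after 5 days. The spread of its untreated libraries was wide, and 5-day library 4 fell inside it. Its differences were -0.70 ± 0.35 and -0.71 ± 0.33, the latter -0.52 ± 0.26 without 5-day library 1. Fdft1, the squalene synthase, read 62.7, 63.7 and 54.7 CPM untreated against 53.5, 33.9 and 46.9 after 24 h, a difference of -0.43 ± 0.22, and 43.4, 37.2, 41.3 and 60.1 after 5 days. Here 3 of the 4 5-day libraries lay below the untreated range and library 4 inside it.

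The remaining sterol genes gave mixed pictures. Dhcr7, the last reductase of 1 branch, ranged from 68.8 to 87.1 CPM untreated, from 51.2 to 77.2 after 24 h and from 70.4 to 80.7 after 5 days apart from library 1, at 33.4. Hsd17b7, a keto reductase, ranged from 36.1 to 56.9 CPM untreated and from 23.9 to 36.3 after 24 h, and read 12.9, 26.5, 37.3 and 50.5 after 5 days. Nsdhl, a decarboxylating dehydrogenase, and Lss, the lanosterol synthase, overlapped between groups at both times; Lss dropped to 4.89 CPM in 24 h library 3, against 14.5 to 21.1 untreated. Ebp, the sterol isomerase, lay below the untreated range after 24 h (17.2 to 19.3 against 19.9 to 24.8 CPM) and reached 34.9 in 5-day library 1, so that it stood 0.43 ± 0.22 higher on the log2 scale at 5 days than at 24 h, or 0.20 ± 0.14 without library 1. Tm7sf2, a sterol reductase, was the 1 sterol gene with a higher mean after 24 h, at 11.9, 18.3 and 15.3 CPM against 10.9 to 12.5 untreated; its 5-day values were 7.20 in library 1 and 13.1 to 14.6 in the others.

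**Figure D2:**
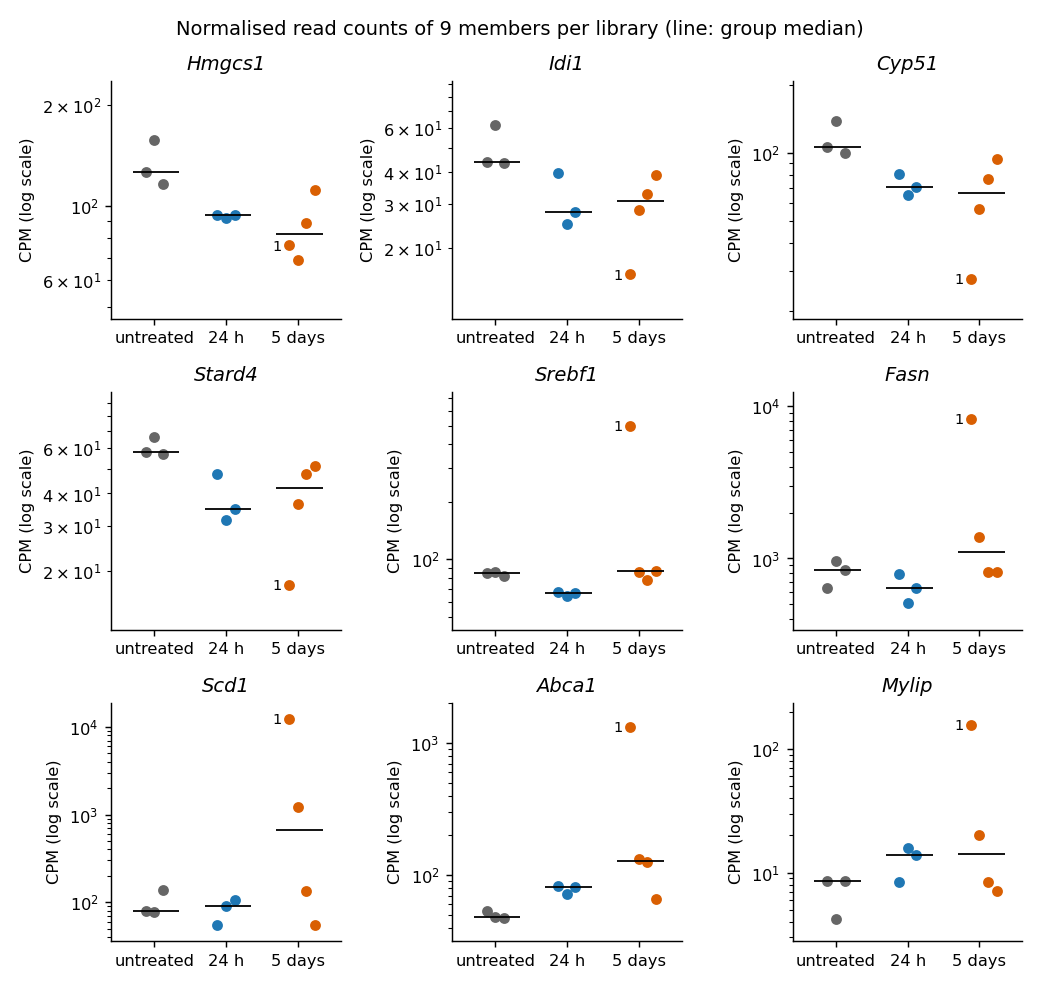
CPM per library (points, log axis) of 9 genes in untreated, 24 h and 5-day tumours; the line is the group median and the point marked 1 is 5-day library 1. Hmgcs1, Idi1, Cyp51 and Stard4 lie below the untreated values in every treated library, Abca1 lies above them, and 5-day library 1 is the lowest point for Idi1, Cyp51 and Stard4 and the highest for Srebf1, Fasn, Scd1, Abca1 and Mylip.

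The genes of SREBP control did not share 1 direction: the median was -0.23 after 24 h and -0.06 after 5 days (-0.11 without library 1). After 24 h, 5 of the 6 were lower with TMM scaling and 4 of the 6 with DESeq2's size factors. Stard4, a sterol carrier and known SREBP2 target, stood closest to the synthesis genes. It read 57.8, 66.2 and 57.1 CPM untreated, 47.8, 31.4 and 34.7 after 24 h, and 17.7, 36.5, 47.5 and 51.2 after 5 days. No treated library reached the untreated range. The log2 differences were -0.67 ± 0.34 (SE) and -0.66 ± 0.32 (edgeR, adjusted p = 0.9997 and 0.538), and -0.66 ± 0.16 and -0.42 ± 0.16 without 5-day library 1 (adjusted p = 0.302 and 0.528).

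Srebf1, which encodes SREBP1, read 84.4, 85.4 and 81.9 CPM untreated and 67.2, 64.1 and 66.2 after 24 h, a narrow gap with little spread inside either group. After 5 days it read 499 in library 1 and 85.5, 77.6 and 87.3 in libraries 2, 3 and 4, so 3 of the 4 lay at the untreated level. The 24 h difference was -0.35 ± 0.67 (SE) with all libraries and -0.34 ± 0.08 without 5-day library 1 (edgeR, adjusted p = 0.294); library 1 sets that error through the shared spread. The 5-day difference was 1.16 ± 0.65 with library 1 and -0.01 ± 0.08 without it. Against 24 h the 5-day libraries were higher by 1.51 ± 0.66, or 0.34 ± 0.08 without library 1 (adjusted p = 0.602). Srebf2, which encodes SREBP2, read 246, 267 and 249 CPM untreated, 261, 192 and 253 after 24 h, and 93.4, 147, 228 and 269 after 5 days. Its 5-day libraries spread from far below the untreated range to its top, and the difference was -0.46 ± 0.31, or -0.25 ± 0.19 without library 1.

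Insig1, an SREBP target whose product retains SCAP, read 68.1, 83.8 and 61.9 CPM untreated, 65.6, 36.7 and 51.4 after 24 h, and 70.5, 50.3, 67.6 and 94.4 after 5 days, with groups that overlapped. Its 24 h difference was -0.48 ± 0.27 (SE), and 5 days stood 0.46 ± 0.25 above 24 h, or 0.46 ± 0.26 without library 1. Insig2 stayed between 17.4 and 26.9 CPM in 9 libraries and read 47.8 in 5-day library 1. Scap ranged from 115 to 150 CPM in 9 libraries and read 76.2 in that library.

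The fatty acid genes showed a small 24 h difference. At 5 days Fasn, Scd1 and Acly were above the untreated range only in libraries 1 and 2. Acaca was above it in all 4 5-day libraries, and Scd2 and Elovl6 were above it in neither library 1 nor library 2. Fasn, the fatty acid synthase, read 637, 965 and 838 CPM untreated, 792, 510 and 639 after 24 h, and 8271, 1388, 813 and 809 after 5 days. Libraries 1 and 2 of the 5-day group lay above every other library, while libraries 3 and 4 lay inside the untreated range. The 5-day difference was 1.79 ± 0.82 on the log2 scale (edgeR, adjusted p = 0.538), 0.31 ± 0.26 without library 1 and -0.01 without libraries 1 and 2. Scd1, the stearoyl-CoA desaturase of fat and liver, read 78.8, 77.4 and 137 CPM untreated, 54.2, 89.6 and 105 after 24 h, and 12430, 1212, 135 and 55.4 after 5 days. The difference of 5.14 ± 1.76 became 2.27 ± 1.13 without library 1 and -0.04 without both. Scd1 and Scd2 are close copies, so reads may be split between them in ways the sources used here do not state.

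Acaca, the acetyl-CoA carboxylase that makes malonyl-CoA, read 115, 129 and 120 CPM untreated and 129, 105 and 115 after 24 h, with ranges that overlapped. After 5 days it read 639, 208, 142 and 153, above every untreated and 24 h library. The 5-day difference was 1.23 ± 0.50 (SE; edgeR, adjusted p = 0.538), or 0.47 ± 0.14 without library 1 (adjusted p = 0.379). Acly, which supplies cytosolic acetyl-CoA from citrate, read 393, 463 and 472 CPM untreated, 424, 301 and 363 after 24 h, and 1272, 569, 439 and 465 after 5 days. Libraries 3 and 4 at 5 days matched the untreated range, and its 24 h difference was -0.29 ± 0.38. Scd2 read 867, 1143 and 866 CPM untreated, 812, 730 and 713 after 24 h, and 681, 788, 821 and 907 after 5 days. It was the 1 fatty acid gene below the untreated range in every 24 h library (-0.35 ± 0.17), and it was lower, not higher, in 5-day library 1. Elovl6, an elongase of saturated chains, stayed between 126 and 176 CPM in the 10 libraries.

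On the efflux side, Abca1, which loads cholesterol onto lipoproteins, read 53.4, 48.5 and 47.6 CPM untreated and 82.5, 72.3 and 81.7 after 24 h. After 5 days it read 1336, 132, 126 and 66.1. Every treated library was above every untreated one. The log2 difference was 0.66 ± 0.98 (SE) after 24 h and 3.06 ± 1.01 after 5 days (edgeR, adjusted p = 0.9997 and 0.538), and 0.67 ± 0.23 and 1.12 ± 0.23 without 5-day library 1 (adjusted p = 0.513 and 0.243). Abcg1, the partner pump, read 40.1, 28.3 and 24.7 CPM untreated, 42.3, 51.2 and 39.0 after 24 h, and 478, 53.1, 44.7 and 31.8 after 5 days. Its groups overlapped slightly at both times. Mylip, an LXR target that marks lipoprotein receptors for degradation, read 8.58, 4.19 and 8.54 CPM untreated, 8.46, 15.9 and 13.9 after 24 h, and 157, 19.99, 8.43 and 7.11 after 5 days. Only 5-day libraries 1 and 2 exceeded the 24 h libraries. The 5-day differences of Abcg1 and Mylip were 2.29 ± 0.94 and 2.75 ± 1.10, or 0.48 ± 0.22 and 0.74 ± 0.44 without library 1. From 24 h to 5 days they were 1.78 ± 0.91 and 1.91 ± 1.04 higher, and without library 1 they differed by -0.03 ± 0.22 and -0.11 ± 0.43, so the direction rests on library 1.

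Of the receptors, Nr1h2, encoding the widely expressed LXR beta, read 45.5, 43.0 and 54.2 CPM untreated, 55.1, 58.3 and 69.9 after 24 h, and 121, 48.1, 49.2 and 46.2 after 5 days. The 24 h libraries lay just above the untreated range (0.36 ± 0.36, or 0.37 ± 0.12 without 5-day library 1, edgeR adjusted p = 0.472), and 3 of the 4 5-day libraries lay inside it. Nr1h3, encoding LXR alpha, ranged from 7.16 to 16.8 CPM untreated, from 9.67 to 15.9 after 24 h, and read 87.3, 16.9, 11.01 and 7.29 after 5 days.

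To set synthesis against efflux in each library, the mean log2 difference from the untreated mean was taken over 22 tested synthesis genes (both cholesterol arms and fatty acid synthesis) and over the 3 LXR targets Abca1, Abcg1 and Mylip. Synthesis minus efflux was -0.35, 0.39 and -0.04 in the untreated libraries, -0.72, -1.29 and -1.02 after 24 h, and -4.43, -1.37, -0.95 and -0.21 after 5 days. The 24 h libraries and 3 of the 4 5-day libraries lay below the untreated range, and 5-day library 4 lay inside it. The group means were 0.00 ± 0.37 (SD, n = 3), -1.01 ± 0.29 (n = 3) and -1.74 ± 1.86 (n = 4), or -0.84 ± 0.59 (n = 3) without 5-day library 1. No test was made of this score, since its genes were chosen with results known. Both components entered the 24 h value: synthesis stood at -0.34 ± 0.13 and the LXR targets at 0.67 ± 0.16. At 5 days the synthesis mean joined opposite parts, with cholesterol synthesis at -0.94, -0.53, -0.35 and -0.02 in libraries 1 to 4 and fatty acid synthesis at 2.32, 0.88, 0.12 and -0.04.

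**Figure D3:**
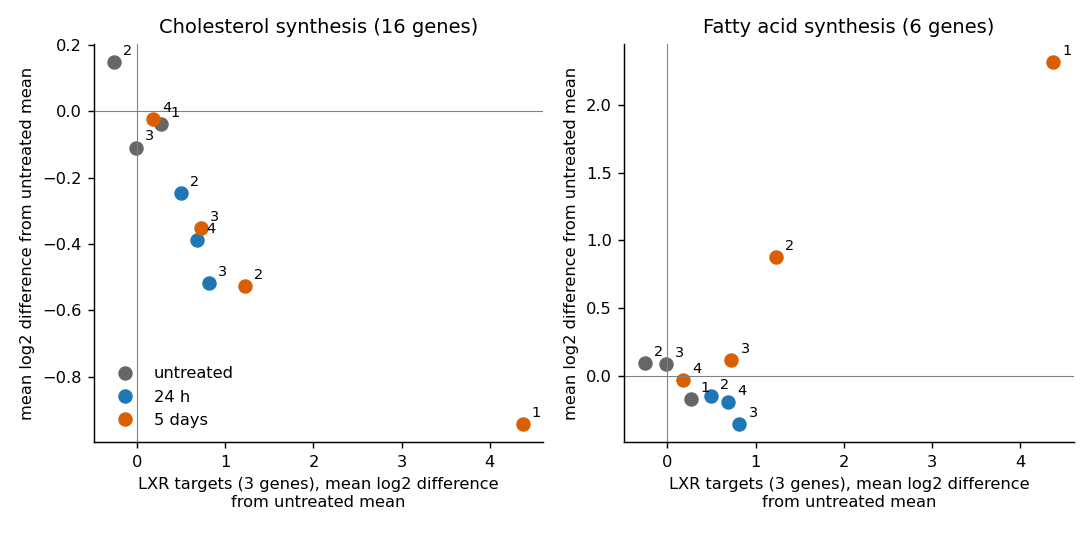
Mean log2 difference from the untreated mean per library, for 3 LXR targets (x axis) against cholesterol synthesis (left, y axis) and fatty acid synthesis (right, y axis); numbers are replicate numbers. On the left, the 24 h libraries and 5-day libraries 2 and 3 lie to the right of and below the untreated ones, with 5-day library 4 among the untreated; on the right, 5-day libraries 1 and 2 lie apart at 2.32 and 0.88.

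Macrophage markers summed higher in every treated library than in every untreated one. Their sum was 568 to 962 CPM untreated, 1229 to 1501 after 24 h, and 13660, 1613, 1583 and 980 after 5 days, and 13 of the 15 markers had a higher mean after 24 h than in untreated tumours. The defining markers were present throughout: Adgre1 read 9.25 to 18.5 CPM untreated and 18.0 to 29.5 after 24 h, and Csf1r read 21.0 to 43.8 and 42.5 to 50.3. The 5-day library with the lowest marker sum, library 4, was also the one closest to untreated in cholesterol synthesis and in the LXR targets. It had the lowest fibroblast and endothelial sums of the 10 libraries as well, at 229 and 34.3 CPM. Untreated library 2 had the lowest macrophage marker sum of the 10 and the highest cholesterol synthesis mean, at 0.15. The other untreated libraries did not keep this order: library 1 had 962 CPM and a mean of -0.04, library 3 had 863 CPM and -0.11. Schwann cell markers were also higher after 24 h, at 33.1 to 66.2 CPM against 14.4 to 25.8, with Sox10 at 5.87 to 14.6 against 1.75 to 2.44. Sympathetic tumour cell markers summed to 682, 1917, 2701 and 2410 CPM in 5-day libraries 1 to 4. Cholesterol synthesis there stood at -0.94, -0.53, -0.35 and -0.02. The part of any of these cells in the results was not tested.

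In 5-day libraries 1 and 2, fat cell markers summed to 12430 and 1865 CPM. In libraries 3 and 4 they summed to 133 and 26.3 CPM. Fasn, Scd1, Acaca and Acly were likewise highest in libraries 1 and 2 of the 5-day group. Scd2 was not, at 681 and 788.3 CPM there against 820.9 and 907.5 in libraries 3 and 4. Nor was Elovl6, at 162.8 and 145.6 against 171.9 and 176.1 CPM. Library 2 also held adrenal cortex, hepatocyte and skeletal muscle sums of 1625, 366 and 363 CPM, and library 3 an adrenal cortex sum of 98.8 CPM. Adipoq read 383 and 65.5 CPM in libraries 1 and 2 and Plin1 547 and 96.2, against 3.79 and 0.53 for Adipoq and 4.47 and 1.24 for Plin1 in libraries 3 and 4. Untreated library 3, with a fat cell marker sum of 1178 CPM, had the highest untreated Scd1, at 137 CPM. Its Fasn, at 838 CPM, was below the 965 CPM of untreated library 2, whose fat cell sum was 155.6 CPM. Acaca was above the untreated range also in 5-day library 4, at 153 CPM. The fat cell sum there, 26.3 CPM, was below every untreated library. After 24 h the fat cell sum was 23.3 to 313 CPM, inside or below the untreated range. How much of the 5-day difference comes with these cells was not tested.

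**Figure D4:**
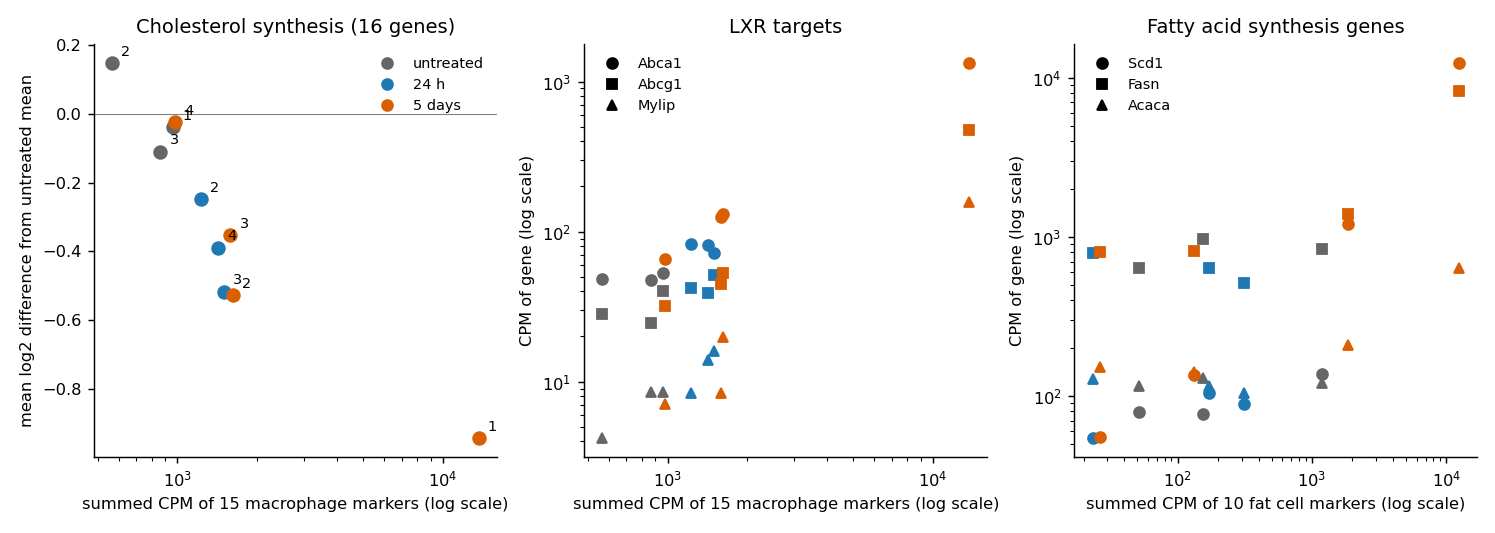
Each point is 1 library, coloured by group; all x axes and the y axes of the middle and right panels are logarithmic. Left, mean log2 difference of 16 cholesterol synthesis genes against the summed CPM of 15 macrophage markers; middle, CPM of 3 LXR targets against the same sum; right, CPM of 3 fatty acid genes against the summed CPM of 10 fat cell markers. The untreated libraries and 5-day library 4 share the low macrophage sums, 568 to 980 CPM, and 5-day library 1 lies far right in each panel.

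Beyond the 35, 39 other genes of the pathway were tested, covering SREBP proteases, elongases and desaturases, acyl-CoA synthetases, sterol transport and LXR partners. After 24 h, 13 were higher and 26 lower with a median log2 difference of -0.05, and 1 had an unadjusted p under 0.05 (1.76% of all tested genes did): Ufd1, a factor of endoplasmic reticulum degradation, at -0.29 ± 0.12 (SE). After 5 days 25 were higher and 14 lower (median 0.10), and 10 had an unadjusted p under 0.05, all higher (8.4% of all tested genes had such a p). Those with the smallest p were Me1, which makes NADPH for lipid synthesis (3.05 ± 1.08), Acsl1, an acyl-CoA synthetase (2.28 ± 0.82), and Pltp, the phospholipid transfer protein and a known LXR target (2.096 ± 0.793). Without 5-day library 1, the median was 0.06, 4 of the 39 had such a p, near the 8.52% of all genes, and Me1, Acsl1 and Pltp stood at 1.84 ± 0.91, 1.06 ± 0.50 and 0.72 ± 0.26. From 24 h to 5 days, 26 were higher and 13 lower (median 0.20, or 0.09 without library 1), 9 with an unadjusted p under 0.05 (6.3% of all tested genes) and 5 without library 1 (7.76%), of which Acsl4, which activates arachidonic acid, had the smallest (1.07 ± 0.32, or 0.73 ± 0.20 without library 1). After adjustment 0 of the 39 were called in any of these fits.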

How the data were processed

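Polyadenylated RNA of flash-frozen tumours was sequenced, 10 libraries in 3 groups assigned by sample title. The authors deposited raw counts per Ensembl gene, 1 file per library. The submitters' processing notes name mm10, TopHat2 2.1.1, HISAT2 and edgeR without their roles; the counter, annotation and strand setting: not given in the sources used here. All 54446 identifiers are genes, of which 54409 were found in GENCODE M21, which gave symbols and exons.

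Genes were tested with edgeR 4.0.16 (filterByExpr, minimum count 10 and total 15; TMM; robust quasi-likelihood F-test; 1 mean per group, all 10 libraries), with Benjamini-Hochberg adjustment over 14956 genes and a threshold of 0.05. The fit was checked on simulated counts. Folds are log2 with standard errors. Levels per library are CPM on TMM-scaled totals, and log2 scores add 0.5 CPM. Lengths per kilobase use exon bases outside other genes' spans, a choice made after seeing the data. Fold changes are printed for, per comparison and role group, the 3 genes with the smallest unadjusted p. The members and lists, the marker lists included, were chosen with earlier results of these data known. Levels of some single markers are not reported here. Alternatives were DESeq2 1.42.0, its size factors, other filters, fits of the compared groups only, a replicate block, and left-out libraries. The floor of 3 counts covers counting error only; the standard errors and SDs include the spread between libraries. Figures used matplotlib 3.10.9. Promoter windows came from RefSeq (GRCm38.p6).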

Additional observations from a re-analysis of the deposited data

Results flagged for a closer look

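Dixon's gap test for 4 values was run on CPM without logs. In 11 of the 33 tested genes, 5-day library 1 stood above the other 3 5-day libraries by more than the test's 95% critical value. Chance flags about 1 in 20 groups of normally spread values, and the 11 share 1 library. The same library stood above the others by this measure in 17.8% of all 14956 tested genes, so it stands apart well beyond these 33. The values there were 499 CPM for Srebf1, 47.8 for Insig2, 1272 for Acly, 639 for Acaca, 8271 for Fasn and 12430 for Scd1. For the LXR and efflux genes they were 121 for Nr1h2, 87.3 for Nr1h3, 1336 for Abca1, 478 for Abcg1 and 157 for Mylip. The nearest other 5-day value was 87.3 CPM for Srebf1, 22.4 for Insig2, 569 for Acly, 208 for Acaca, 1388 for Fasn and 1212 for Scd1. For the LXR and efflux genes it was 49.2 for Nr1h2, 16.9 for Nr1h3, 132 for Abca1, 53.1 for Abcg1 and 19.99 for Mylip. No gene of the mevalonate or sterol arm was among them on this scale. Without logs, library 1 was flagged as low in only 3.3% of all tested genes, and log values were not searched. Dhcr7, at 33.4 CPM there against 70.4 to 80.7 in the other 5-day libraries, was not flagged. The same library held macrophage, fat cell and fibroblast marker sums of 13660, 12430 and 17910 CPM; their part was not tested.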

How the results depend on the processing

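No member was called under any alternative run, and the smallest adjusted p of a named gene over them was 0.0916 at 24 h, 0.0693 at 5 days and 0.0889 between the treated groups. The number of genes called in the whole table at 24 h was 7 with only the compared groups, 3 without 5-day libraries 1 and 2, and 0 to 2 over the fits that leave out 1 library each; DESeq2 called 21 at 5 days and 3 between 24 h and 5 days, where leaving out both 5-day libraries gave 2. Members with an unadjusted p under 0.05 numbered 0 to 17 at 24 h, 2 to 17 at 5 days and 0 to 8 between the treated groups. Under the settings at these ends, the shares of all tested genes were 0.957% and 8.55%, 2.84% and 16.4%, and 1.94% and 8.41%. Other fits shared some ends. Leaving out 5-day library 4 also gave 8 between the treated groups, with a share of 13.9%. Leaving out 24 h library 3 or 4 also gave 0 at 24 h, with shares of 1.01% and 0.699%.

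Leaving out 1 library at a time spread the 5-day medians: fatty acid synthesis from 0.23 to 1.13 and LXR and efflux from 0.48 to 2.63 against untreated, and LXR and efflux from -0.11 to 2.12 and the mevalonate arm from -0.26 to -0.06 against 24 h. Fatty acid synthesis against 24 h spread from 0.48 to 1.30 and the sterol arm from -0.17 to 0.12, and against untreated the sterol arm spread from -0.59 to -0.24 and SREBP control from -0.21 to 0.03. At 24 h the LXR and efflux median spread from 0.40 to 0.71. The same fits took Srebf1 at 5 days from -0.01 to 1.42 and, between the treated groups, Cyp51 from -0.43 to 0.06, Abcg1 from -0.03 to 2.12 and Mylip from -0.11 to 2.27. Without 5-day libraries 1 and 2 together, the 5-day medians were 0.01 for fatty acid synthesis and 0.12 for LXR and efflux, with Srebf1 at -0.03, Scd1 at -0.04 and Fasn at -0.01. The cholesterol synthesis median shrank as well, from -0.42 with all libraries to -0.17, with the mevalonate arm at -0.23 and the sterol arm at -0.12. Against 24 h that fit gave medians of 0.03 for the mevalonate arm, 0.31 for fatty acid synthesis and -0.36 for LXR and efflux, with Acat2 at 0.03, Hmgcs1 at 0.09, Cyp51 at 0.24, Srebf2 at 0.07, Abcg1 at -0.21 and Mylip at -0.72. Fewer samples enter these fits; the cause was otherwise not tested.

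The labels do not say whether replicate numbers pair the samples, and correlations of the libraries' deviations from their group means did not settle it. Between untreated and 24 h, same-numbered libraries correlated at 0.211 and 0.247 and differently numbered ones at -0.291 to 0.049. In the pairs with 5-day libraries, same-numbered ones correlated at -0.395 to 0.026 and the others at -0.549 to 0.487. With a replicate block, the 24 h medians were 0.02 for fatty acid synthesis and 1.37 for LXR and efflux, Srebf1 at 24 h was 0.08, and the LXR and efflux median between 24 h and 5 days was 0.24; the block called 0 genes in each comparison. The biological coefficient of variation was 40.8%, or 18.9% without 5-day library 1, and 3 or 4 libraries a group limit the precision of each mean.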
